A study of Rattus norvegicus with 6 samples.

Results

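The interferon-stimulated genes of cultured neonatal rat heart muscle cells were examined for their response to compound 915. The set was a list of 41 genes linked to the cell's response to interferon, matched to the gene table by symbol. Of these 41 genes, 37 had a row among the 21648 genes of the table. The levels of Oas3, Isg20, Bst2 and Samd9 were not analysed here. Another gene, Oas1b, had too few reads for a test, with 4, 3 and 6 reads in the DMSO libraries and 2, 2 and 5 in the 915 libraries. The remaining 36 genes were tested among 14253 genes in all.

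The cells were neonatal rat ventricular myocytes (NRVM), a primary culture of wild-type ventricular heart muscle cells from rat pups. The study's title concerns agonists that act on all estrogen-related receptors (ERRs), nuclear receptors that drive genes of mitochondrial and fatty acid metabolism. One group of 3 libraries came from cells given 10 µM 915 for 72 h, and the other 3 came from cells given the same volume of its solvent, dimethyl sulfoxide (DMSO), for as long. Each library held total RNA read by sequencing, with 30639244 to 40010826 reads assigned to genes. Both groups shared the same preparation: the suspension was first left on plastic so that fibroblasts could attach, the myocytes were grown in serum with bromodeoxyuridine, and the medium was then changed to one with insulin, transferrin and selenium. Strain, sex and any pooling of pups were not stated. The labels call the libraries biological replicates without saying that they came from separate isolations, so p-values here measure the spread between these libraries.

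Interferons are secreted proteins that cells release on sensing viral or misplaced nucleic acid. Type I interferon binds a receptor made of Ifnar1 and Ifnar2, and the receptor's kinases activate a complex of STAT proteins with Irf9. That complex binds the interferon-stimulated response element (ISRE) in the promoters of its target genes. The targets include the sensors that start the response, the transcription factors that carry it, and effectors that block viral RNA, protein or budding. Heart muscle cells express many of these genes at a low level without infection, and viral myocarditis raises them.

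Higher levels with 915 were found for 20 of the 36 tested genes, led by the antiviral genes Ifit3 and Rsad2, and 1 gene, the transcription factor Irf5, fell. In the same fit 24.3% of all genes tested were called higher and 25.5% lower, where a call means an adjusted p under 0.05, against 55.6% and 2.78% of the interferon-stimulated genes. Their median log2 fold change was 0.33, and that of all genes tested was -0.01. The largest values were a log2 fold change of 1.68 ± 0.236 (SE; adjusted p = 4.20e-05, edgeR) for Ifit3, or 3.20-fold, and a log2 fold change of 1.60 ± 0.201 (SE; adjusted p = 1.40e-05, edgeR) for Rsad2, or 3.03-fold. The count depended on single libraries: 13 genes were called higher without DMSO library 1, 13 without DMSO library 3 and 13 without 915 library 3, and 13 by DESeq2 in place of edgeR. It was 29 without DMSO library 2, where 24.2% of all genes were called higher. DESeq2 called 6861 of all genes higher or lower, against 7096 by edgeR on all 6 libraries. The share of all genes called without DMSO library 1, DMSO library 3 or 915 library 3 is not given here. The calls of 10 of the 20 genes held in each of the 12 alternative fits: Irf7, Irf9, Herc6, Ifit1, Ifit3, Oasl, Gbp2, Gbp5, Rsad2 and Ifi27. Some held narrowly, with DESeq2 adjusted p of 0.0496 for Irf7, 0.0401 for Ifi27 and 0.0342 for Ifit1. The call of Irf5 held in all 12 as well, while genes called lower numbered 3 without DMSO library 1 and 2 without 915 library 3.

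One DMSO library stood apart for these genes before any comparison of groups. DMSO library 2 was the highest of the 3 DMSO libraries for 33 of the 36 genes, or 91.7%, against 32.9% of all genes tested. Its excess over the mean of DMSO libraries 1 and 3 had a median of 0.54 on the scale of log2(CPM + 0.5), against -0.01 over all genes. CPM, the level after scaling to library depth, is not corrected for transcript length and is compared here only within a gene. Among the 915 libraries the picture was turned round, with library 2 the lowest for 28 of the 36 genes, or 77.8%, against 36.7% of all genes. Both patterns held for 28 genes, or 77.8%, against 15.8% of all genes tested. DMSO library 2 lay above 915 library 2 for 30 of the 36, or 83.3%, against 53.9% of all genes. The levels of the 2 groups did not overlap, with 915 higher, for only 6 genes, or 16.7%, which is below the 23.9% found over all genes tested. These 6 were Ifit3, Rsad2, Oasl, Irf9, Gbp5 and Herc6. The differences of the genes described below are therefore given with and without DMSO library 2. That library was singled out on the same genes, so the larger differences without it are no independent support for an effect of 915.

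**Figure D1:**
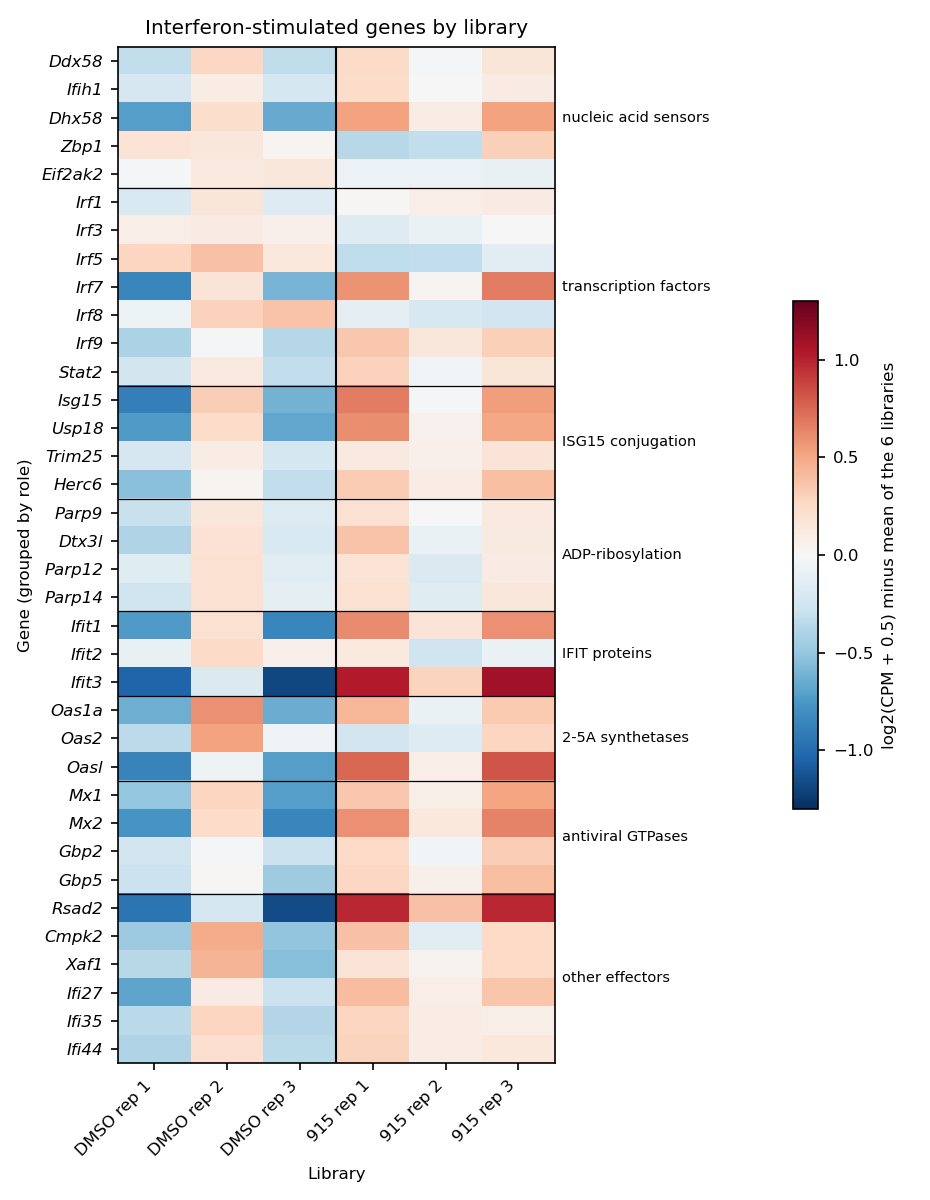
Deviation of log2(CPM + 0.5) from the mean of the 6 libraries, for the 36 tested genes (rows, by role) in each library (columns; rep is the replicate number). DMSO library 2 is the reddest DMSO column for 33 of the 36 genes, and the mean deviation over all of them is 0.18 there against -0.41 and -0.37 in DMSO libraries 1 and 3.

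The promoters of the genes with the largest rise are shown because the ISRE is a site through which type I interferon acts on its target genes. Windows of 300 bases, from 250 before to 50 after the transcription start, were available for 32 of the 41 genes in the RefSeq annotation of rat assembly GRCr8. The following 6 are those of the genes with the highest log2 fold change among those that rose and had a window, written 5′ to 3′ on the gene's strand. Capitals mark a match to the ISRE core GAAANNGAAA or its reverse complement TTTCNNTTTC.
Ifit3 (chr1:241527076-241527375, plus strand): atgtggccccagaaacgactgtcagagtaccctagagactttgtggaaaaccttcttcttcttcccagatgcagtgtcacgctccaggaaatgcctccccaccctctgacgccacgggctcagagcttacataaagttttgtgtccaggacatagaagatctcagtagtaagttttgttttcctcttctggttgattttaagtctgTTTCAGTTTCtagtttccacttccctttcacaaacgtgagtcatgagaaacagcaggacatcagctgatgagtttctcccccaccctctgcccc
Rsad2 (chr6:48788071-48788370, minus strand): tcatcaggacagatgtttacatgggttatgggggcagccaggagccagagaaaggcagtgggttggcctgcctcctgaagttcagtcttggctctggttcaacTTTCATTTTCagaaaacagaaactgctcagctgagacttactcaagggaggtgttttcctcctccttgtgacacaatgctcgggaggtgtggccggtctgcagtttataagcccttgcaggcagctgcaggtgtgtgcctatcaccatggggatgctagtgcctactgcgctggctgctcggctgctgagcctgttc
Oasl (chr12:47356243-47356542, minus strand): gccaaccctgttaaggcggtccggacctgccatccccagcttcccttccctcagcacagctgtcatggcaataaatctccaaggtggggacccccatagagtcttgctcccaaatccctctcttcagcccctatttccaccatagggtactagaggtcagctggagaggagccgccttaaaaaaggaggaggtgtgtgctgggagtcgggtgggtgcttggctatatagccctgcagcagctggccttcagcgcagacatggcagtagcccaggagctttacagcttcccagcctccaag
Irf7 (chr1:205799974-205800273, minus strand): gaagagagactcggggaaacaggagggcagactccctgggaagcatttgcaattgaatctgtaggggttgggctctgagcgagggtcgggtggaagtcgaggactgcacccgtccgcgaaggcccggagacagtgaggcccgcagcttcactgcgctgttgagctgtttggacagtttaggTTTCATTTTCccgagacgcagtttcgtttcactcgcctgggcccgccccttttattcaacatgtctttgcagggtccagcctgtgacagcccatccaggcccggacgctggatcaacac
Mx1 (chr11:50294557-50294856, minus strand): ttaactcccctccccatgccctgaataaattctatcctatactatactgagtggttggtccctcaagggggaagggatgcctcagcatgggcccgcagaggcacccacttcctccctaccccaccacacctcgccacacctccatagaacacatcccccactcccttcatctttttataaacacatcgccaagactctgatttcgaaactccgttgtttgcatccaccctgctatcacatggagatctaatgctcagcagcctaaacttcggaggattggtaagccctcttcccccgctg
Herc6 (chr4:88896944-88897243, minus strand): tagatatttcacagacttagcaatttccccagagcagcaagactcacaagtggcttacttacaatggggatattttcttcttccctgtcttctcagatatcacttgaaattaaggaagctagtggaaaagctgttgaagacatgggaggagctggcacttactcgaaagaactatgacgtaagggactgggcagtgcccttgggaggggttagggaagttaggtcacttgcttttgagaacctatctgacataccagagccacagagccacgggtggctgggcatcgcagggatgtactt

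A match stood in the windows of Ifit3, Rsad2 and Irf7 and in none of those of Oasl, Mx1 and Herc6. Its first base lay 44 bases before the start in Ifit3, 147 in Rsad2 and 69 in Irf7. Over both strands the ISRE core was found in 19 of the 32 windows, or 59.4%, against 3.92% of 33469 windows of the same length. The core of the gamma-activated site, TTCNNNGAA, which reads the same on both strands, was found in 8 windows, or 25.0%, against 8.87% of all; it overlapped an ISRE match only in Bst2 and Samd9. The element bound by the ERRs, searched as TNAAGGTCA and its reverse complement TGACCTTNA, was found in 0 of the 32 and in 1.20% of all windows. With so low a share over all windows, 32 windows cannot show whether the ERR element is rarer in these genes. A match is a description of the letters and says nothing about binding.

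The ISRE core was not limited to the genes that rose. It was found in 8 of the 15 windows of genes called higher and in 6 of the 11 windows of genes not called. It was not found in that of Irf5. The other matches were in genes without a test: all 4 without a row (Oas3, Isg20, Bst2 and Samd9) and Oas1b. The stretches of 30 bases around the match show the same core in genes with different results. These genes were chosen after their values were seen, with Gbp2, Gbp5 and Ifih1 called higher and Eif2ak2, Parp12 and Oas1a not called.
Gbp2: agttttttagTTTCACTTTCattgtcttaa
Gbp5: acttgtgtagTTTCAATTTCagtttagagg
Ifih1: gaagagaatcGAAACAGAAAccgatgtgtg
Eif2ak2: agtccgccggGAAAACGAAAcagagagaac
Parp12: tggggccggcTTTCGGTTTCgtttccttcc
Oas1a: cccctctcggGAAATGGAAACTGAAAatct

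The nucleic acid sensors detect viral or misplaced RNA and DNA. Of the 5 tested, Ifih1 and Dhx58 rose and 3 were not called. Dhx58, the RNA sensor LGP2, which tunes signalling by the related receptors, was at 13.4, 26.2 and 14.0 CPM with DMSO and 32.3, 23.9 and 32.4 CPM with 915, in the order of libraries 1 to 3 used throughout. DMSO library 2 lay above 915 library 2, and the other DMSO libraries lay below every 915 library. The difference was a log2 fold change of 0.77 ± 0.200 (SE; adjusted p = 0.00527, edgeR), and without DMSO library 2 it was 1.16 (edgeR adjusted p = 1.32e-07). With DESeq2 the adjusted p of Dhx58 was 0.0596.

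Ifih1, the sensor MDA5 for long double-stranded RNA, was at 23.8, 30.0 and 23.8 CPM with DMSO and 33.1, 27.8 and 30.1 CPM with 915. Its groups overlapped through library 2 of each, with a log2 fold change of 0.28 ± 0.0956 (SE; adjusted p = 0.0258, edgeR), or 0.41 (edgeR adjusted p = 4.96e-04) without DMSO library 2. Among the fits that leave out a library or the scaling, the call was lost without DMSO library 1 (edgeR adjusted p = 0.117), DMSO library 3 (0.103), 915 library 1 (0.13), 915 library 3 (0.061) or TMM scaling (0.0612). Ddx58, the sensor RIG-I, was at 27.9, 42.1 and 27.8 CPM with DMSO and 41.6, 34.3 and 39.2 CPM with 915. It did not pass the test, with a log2 fold change of 0.28 ± 0.133 (SE; adjusted p = 0.0918, edgeR), and without DMSO library 2 its log2 fold change was 0.52 (edgeR adjusted p = 3.53e-05). Zbp1, a sensor of Z-form nucleic acid, stayed under 1 CPM in each of the 6 libraries. Eif2ak2, the kinase PKR that halts translation on binding double-stranded RNA, lay lower with 915, at 50.8, 56.3 and 57.0 CPM with DMSO and 48.7, 49.0 and 48.1 CPM with 915. All 3 of its 915 libraries lay below the DMSO libraries, and the difference did not pass the test with a log2 fold change of -0.12 ± 0.0611 (SE; adjusted p = 0.112, edgeR), or -0.09 (edgeR adjusted p = 0.257) without DMSO library 2. It was called lower without DMSO library 1 (edgeR adjusted p = 0.0352) and without TMM scaling (0.022).

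Among 7 transcription factors of the response, Irf7, Irf9 and Stat2 rose, Irf5 fell, and Irf1, Irf3 and Irf8 were not called. Irf9, the DNA-binding part of the complex that carries the type I signal, was at 43.8, 57.2 and 44.8 CPM with DMSO and 74.3, 64.4 and 72.5 CPM with 915. Every 915 library lay above every DMSO library, with a log2 fold change of 0.58 ± 0.0928 (SE; adjusted p = 1.25e-04, edgeR), which became 0.72 (edgeR adjusted p = 8.67e-08) without DMSO library 2. Irf7, which amplifies interferon production once it is induced, was at 64.4, 131 and 76.3 CPM with DMSO and 175, 119 and 186 CPM with 915. Its DMSO library 2 exceeded 915 library 2, and the other DMSO libraries lay below all 915 libraries. The difference was a log2 fold change of 0.87 ± 0.208 (SE; adjusted p = 0.00313, edgeR) and 1.24 (edgeR adjusted p = 2.44e-07) without DMSO library 2. Stat2, the partner of Irf9, was at 132, 170 and 125 CPM with DMSO and 192, 151 and 174 CPM with 915. Its DMSO library 2 lay above 915 library 2. Stat2 had a log2 fold change of 0.33 ± 0.104 (SE; adjusted p = 0.0176, edgeR), or 0.48 (edgeR adjusted p = 2.67e-05) without DMSO library 2. Its call was lost with DESeq2 (adjusted p = 0.121) and, in edgeR, without DMSO library 1 (adjusted p = 0.0793), DMSO library 3 (0.0819), 915 library 1 (0.109) or 915 library 3 (0.0556).

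Irf5, a factor that drives inflammatory cytokine genes and is abundant in macrophages, was at 12.4, 13.3 and 11.2 CPM with DMSO and 7.95, 8.04 and 9.08 CPM with 915. All 915 libraries lay below all DMSO libraries, and Irf5 fell with a log2 fold change of -0.51 ± 0.104 (SE; adjusted p = 9.82e-04, edgeR), or -0.44 (edgeR adjusted p = 0.00402) without DMSO library 2. Irf8, a factor of myeloid cells, was at 1.61, 2.22 and 2.35 CPM with DMSO and 1.52, 1.41 and 1.35 CPM with 915, also without overlap, and did not pass the test (log2 fold change -0.48, edgeR adjusted p = 0.0940, and 0.0482 without DMSO library 1). Without DMSO library 2 its log2 fold change was -0.41 (edgeR adjusted p = 0.227). Macrophage and leukocyte markers had a summed level of 274 to 307 CPM with DMSO and 141 to 170 CPM with 915. Beside 25.5% of all genes called lower, 8 of the 14 tested markers fell. They included the receptor Csf1r, at 15.1, 15.0 and 14.4 CPM with DMSO and 5.99, 5.84 and 5.68 CPM with 915, and Lyz2 (lysozyme), at 126, 131 and 127 CPM with DMSO and 59.2, 54.0 and 67.0 CPM with 915. In RNA from a whole culture, fewer cells of a type and less RNA per cell cannot be told apart, and the part of these cells in the fall of Irf5 was not tested. Irf1, an early target of interferon signalling, was at 26.8, 34.6 and 27.5 CPM with DMSO and 31.2, 32.8 and 33.2 CPM with 915. Its log2 fold change of 0.18 did not pass the test (edgeR adjusted p = 0.115) and became 0.31 (edgeR adjusted p = 0.00156) without DMSO library 2. Irf3, which is activated by phosphorylation rather than by synthesis, had a log2 fold change of -0.12 ± 0.0576 (SE; adjusted p = 0.105, edgeR), or -0.10 (edgeR adjusted p = 0.202) without DMSO library 2. It was called lower without 915 library 3 (edgeR adjusted p = 0.0411) and without TMM scaling (0.0196).

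**Figure D2:**
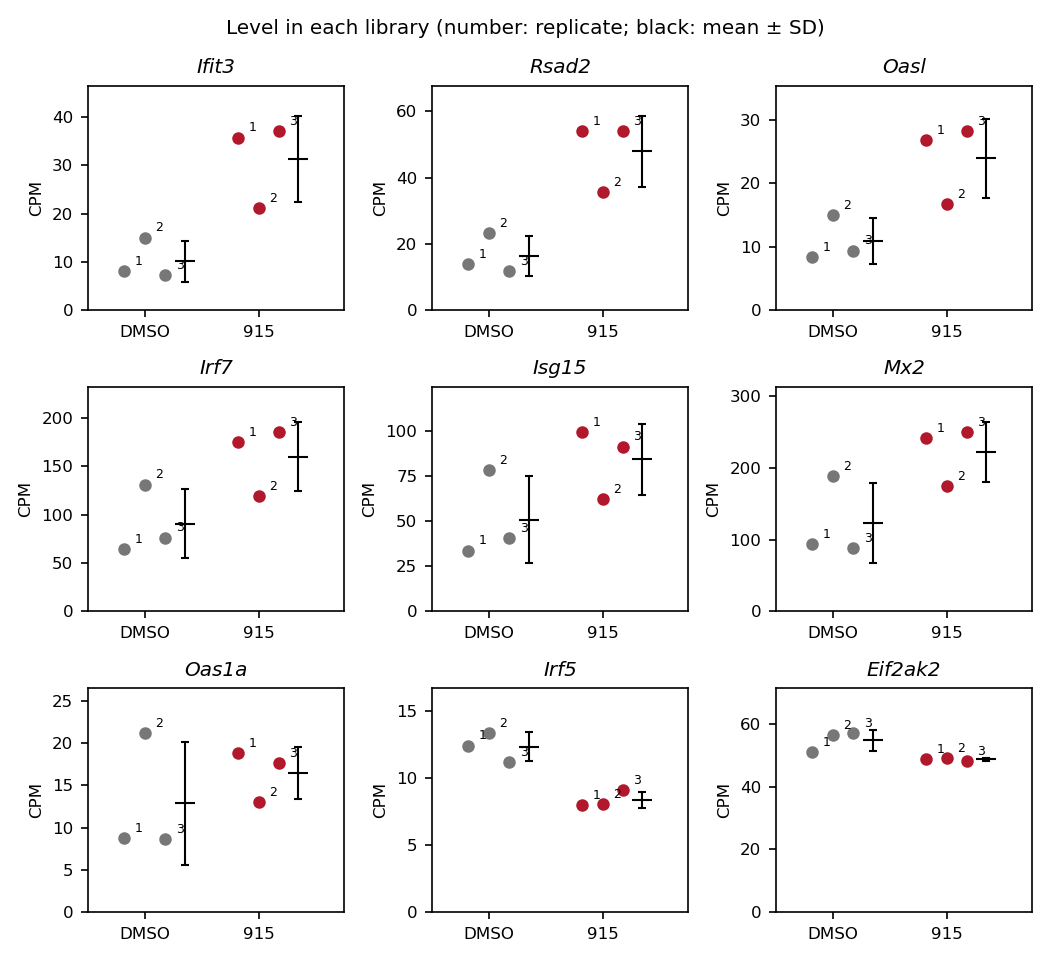
Level (CPM, linear axis from 0) of 9 genes in each library, with the replicate number beside each point and the mean ± SD of the 3 libraries in black. For Ifit3, Rsad2 and Oasl every 915 point lies above every DMSO point, for Irf5 and Eif2ak2 every one lies below, and for Irf7, Isg15, Mx2 and Oas1a DMSO library 2 lies above 915 library 2.

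The genes of ISG15 conjugation attach, remove or regulate Isg15, a small protein that is joined to others as ubiquitin is. All 4 tested rose, and the median of their log2 fold changes was 0.69. Herc6, a ligase of the family that attaches Isg15 in rodents, was at 9.59, 14.6 and 11.3 CPM with DMSO and 18.1, 15.3 and 18.8 CPM with 915. The groups did not overlap, with a log2 fold change of 0.60 ± 0.134 (SE; adjusted p = 0.00181, edgeR), and 0.79 (edgeR adjusted p = 1.24e-05) without DMSO library 2. Usp18, which removes Isg15 and also restrains the interferon receptor, was at 29.2, 58.3 and 30.7 CPM with DMSO and 75.1, 51.3 and 70.1 CPM with 915. DMSO library 2 lay above 915 library 2, and the difference was a log2 fold change of 0.78 ± 0.207 (SE; adjusted p = 0.00609, edgeR), or 1.19 (edgeR adjusted p = 9.17e-08) without that DMSO library. Its adjusted p with DESeq2 was 0.0847.

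Isg15 itself was at 33.7, 78.4 and 40.8 CPM with DMSO and 99.6, 62.2 and 91.5 CPM with 915, so that DMSO library 2 lay far above the other DMSO libraries and exceeded 915 library 2. The difference was a log2 fold change of 0.78 ± 0.238 (SE; adjusted p = 0.0142, edgeR) and rose to 1.24 (edgeR adjusted p = 5.81e-07) without that library. The call was lost with DESeq2 (adjusted p = 0.14) and, in edgeR, without DMSO library 1 (adjusted p = 0.0641), DMSO library 3 (0.055), 915 library 1 (0.0791) or 915 library 3 (0.0604). Trim25, a ubiquitin ligase that activates RIG-I, was at 28.9, 36.0 and 28.7 CPM with DMSO and 36.6, 35.3 and 38.0 CPM with 915, with 915 library 2 under DMSO library 2. It had a log2 fold change of 0.28 ± 0.0855 (SE; adjusted p = 0.0137, edgeR), or 0.40 (edgeR adjusted p = 1.16e-04) without that library, and lost its call without DMSO library 1 (edgeR adjusted p = 0.0724), DMSO library 3 (0.0654) or 915 library 3 (0.0562).

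Of the 4 ADP-ribosylation genes only Parp9 rose, and the median of the 4 log2 fold changes was 0.21. Parp9 forms a complex with the ubiquitin ligase Dtx3l that strengthens interferon signalling. Parp9 was at 55.3, 74.8 and 59.8 CPM with DMSO and 77.5, 67.4 and 73.6 CPM with 915, with 915 libraries 2 and 3 under DMSO library 2, and had a log2 fold change of 0.25 ± 0.0947 (SE; adjusted p = 0.0406, edgeR). Without DMSO library 2 this became 0.40 (edgeR adjusted p = 8.62e-05). Among the fits that leave out a library or the scaling, its call was lost without DMSO library 1 (edgeR adjusted p = 0.195), DMSO library 3 (0.125), 915 library 1 (0.158), 915 library 3 (0.104) or TMM scaling (0.0915). Dtx3l was at 16.7, 25.3 and 19.2 CPM with DMSO and 28.8, 20.9 and 24.0 CPM with 915. It did not pass the test, with a log2 fold change of 0.32 ± 0.138 (SE; adjusted p = 0.0732, edgeR), and had 0.51 (edgeR adjusted p = 9.67e-04) without DMSO library 2 and an edgeR adjusted p of 0.0253 without 915 library 2. The 2 genes start next to each other on opposite strands, and whether reads were assigned by strand was not stated.

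Parp14, a mono-ADP-ribosyltransferase, was at 53.0, 72.8 and 58.4 CPM with DMSO and 72.7, 56.7 and 70.1 CPM with 915, and its DMSO library 2 was the highest of all 6 libraries. It had a log2 fold change of 0.16 ± 0.109 (SE; adjusted p = 0.234, edgeR), and 0.31 (edgeR adjusted p = 0.00525) without that library. Parp12, which inhibits viral translation, was at 29.7, 37.9 and 30.0 CPM with DMSO and 37.5, 28.9 and 35.7 CPM with 915. Here too DMSO library 2 was the highest of the 6, and 915 library 2 was the lowest. The difference was a log2 fold change of 0.11 ± 0.107 (SE; adjusted p = 0.398, edgeR), and 0.25 (edgeR adjusted p = 0.0317) without DMSO library 2.

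The IFIT proteins bind foreign RNA ends and block their translation, and of their 3 tested genes 2 rose. Ifit3, which stabilises Ifit1 on RNA, was at 8.10, 15.0 and 7.26 CPM with DMSO and 35.7, 21.2 and 37.1 CPM with 915. Its lowest 915 library lay above its highest DMSO library, and its fold of 3.20 became 4.25 without DMSO library 2. Ifit1 was at 8.89, 17.5 and 8.23 CPM with DMSO and 23.5, 17.1 and 23.2 CPM with 915. DMSO library 2 lay just above 915 library 2, and Ifit1 had a log2 fold change of 0.93 ± 0.218 (SE; adjusted p = 0.00260, edgeR), or 1.37 (edgeR adjusted p = 6.24e-08) without DMSO library 2. Ifit2 was at 31.5, 40.1 and 35.2 CPM with DMSO and 36.9, 28.0 and 31.7 CPM with 915, with 915 library 2 below the DMSO range and the other 915 libraries inside it. It had a log2 fold change of -0.09 ± 0.102 (SE; adjusted p = 0.469, edgeR), and the sign turned without DMSO library 2, at 0.01 (edgeR adjusted p = 0.947). Members of this family are similar in sequence, and how reads shared between copies were counted was not stated.

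The oligoadenylate synthetases make a short nucleotide messenger on binding double-stranded RNA. Of 3 tested, 1 rose. Oasl, a family member that lacks this enzyme activity in its human form, was at 8.40, 15.0 and 9.44 CPM with DMSO and 26.8, 16.8 and 28.3 CPM with 915. The groups did not overlap, with a log2 fold change of 1.18 ± 0.204 (SE; adjusted p = 2.48e-04, edgeR), and without DMSO library 2 it had 1.49 (edgeR adjusted p = 5.75e-07). Oas1a was at 8.75, 21.2 and 8.66 CPM with DMSO and 18.8, 13.0 and 17.6 CPM with 915, so that DMSO library 2 was the highest of the 6 libraries. It did not pass the test with a log2 fold change of 0.41 ± 0.265 (SE; adjusted p = 0.222, edgeR), and without DMSO library 2 it had 0.98 (edgeR adjusted p = 7.13e-06). Oas2 stayed low, at 1.56, 3.25 and 2.02 CPM with DMSO and 1.70, 1.83 and 2.68 CPM with 915, with a log2 fold change of -0.08 ± 0.277 (SE; adjusted p = 0.828, edgeR). Its sign turned without DMSO library 2 (0.27) and without 915 library 1 (0.05). Reads of Oas1a and its close copy Oas1b may have been shared or discarded.

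The antiviral GTPases, which trap viral cores or attack the membranes around microbes, all 4 rose, and their median difference was 0.58 in log2. Gbp5, a guanylate-binding protein that coats microbial vacuoles, was at 19.8, 24.3 and 17.4 CPM with DMSO and 29.2, 25.2 and 31.7 CPM with 915. Its groups did not overlap, with a log2 fold change of 0.54 ± 0.113 (SE; adjusted p = 0.00122, edgeR), or 0.68 (edgeR adjusted p = 1.23e-05) without DMSO library 2. Gbp2, of the same family, was at 55.4, 64.9 and 54.0 CPM with DMSO and 77.8, 63.9 and 81.8 CPM with 915, with DMSO library 2 just above 915 library 2, and a log2 fold change of 0.41 ± 0.0902 (SE; adjusted p = 0.00176, edgeR). Without that DMSO library Gbp2 had 0.50 (edgeR adjusted p = 5.27e-05). Mx2 was at 93.5, 188 and 88.8 CPM with DMSO and 242, 175 and 251 CPM with 915. Its DMSO library 2 lay above 915 library 2 and far above the other DMSO libraries. Mx2 had a log2 fold change of 0.90 ± 0.220 (SE; adjusted p = 0.00366, edgeR), and 1.34 (edgeR adjusted p = 6.62e-09) without DMSO library 2; with DESeq2 its adjusted p was 0.063.

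Mx1, neighbour and close copy of Mx2, was at 29.7, 51.6 and 25.5 CPM with DMSO and 54.3, 44.5 and 60.6 CPM with 915. Its DMSO library 2 lay above 915 library 2. Mx1 had a log2 fold change of 0.63 ± 0.192 (SE; adjusted p = 0.0143, edgeR), and 1.00 (edgeR adjusted p = 2.42e-07) without DMSO library 2. Its call was lost with DESeq2 (adjusted p = 0.139) and, in edgeR, without DMSO library 1 (adjusted p = 0.0699), DMSO library 3 (0.0567) or 915 library 3 (0.0788).

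Among the 6 other effectors tested, Rsad2, Ifi27 and Ifi44 rose. Rsad2, the enzyme viperin that makes a chain-terminating nucleotide, was at 13.9, 23.3 and 11.9 CPM with DMSO and 54.1, 35.6 and 54.1 CPM with 915. Each 915 library lay above each DMSO library, and the log2 fold change without DMSO library 2 was 1.95 (edgeR adjusted p = 2.83e-09). Ifi27, a small mitochondrial protein, was at 231, 400.0 and 307 CPM with DMSO and 493, 395 and 479 CPM with 915, with DMSO library 2 just above 915 library 2 and a log2 fold change of 0.59 ± 0.143 (SE; adjusted p = 0.00337, edgeR). Without that DMSO library Ifi27 had 0.82 (edgeR adjusted p = 1.35e-06). Ifi44 was at 30.3, 46.4 and 31.3 CPM with DMSO and 48.9, 42.7 and 43.9 CPM with 915. Its DMSO library 2 lay above 915 libraries 2 and 3, with a log2 fold change of 0.38 ± 0.128 (SE; adjusted p = 0.0248, edgeR), or 0.61 (edgeR adjusted p = 1.81e-06) without DMSO library 2. Its call was lost with DESeq2 (adjusted p = 0.154) and, in edgeR, without DMSO library 1 (adjusted p = 0.123), DMSO library 3 (0.101), 915 library 1 (0.11) or 915 library 3 (0.0537).

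Cmpk2, a mitochondrial nucleotide kinase whose gene lies beside Rsad2 on the opposite strand, was not called. It was at 11.9, 23.6 and 11.6 CPM with DMSO and 21.9, 15.2 and 20.1 CPM with 915, and DMSO library 2 was the highest of the 6. The difference was a log2 fold change of 0.33 ± 0.217 (SE; adjusted p = 0.223, edgeR), and 0.76 (edgeR adjusted p = 5.86e-05) without that library. Xaf1, which promotes cell death, was at 6.31, 11.3 and 5.47 CPM with DMSO and 9.34, 8.50 and 9.99 CPM with 915, again with DMSO library 2 the highest of all. It had a log2 fold change of 0.32 ± 0.206 (SE; adjusted p = 0.222, edgeR), and 0.71 (edgeR adjusted p = 2.16e-04) without that library. Ifi35 was at 17.5, 27.5 and 17.2 CPM with DMSO and 27.4, 24.1 and 23.7 CPM with 915, and DMSO library 2 just exceeded 915 library 1. It had a log2 fold change of 0.32 ± 0.144 (SE; adjusted p = 0.0797, edgeR), and 0.59 (edgeR adjusted p = 2.14e-05) without DMSO library 2.

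**Figure D3:**
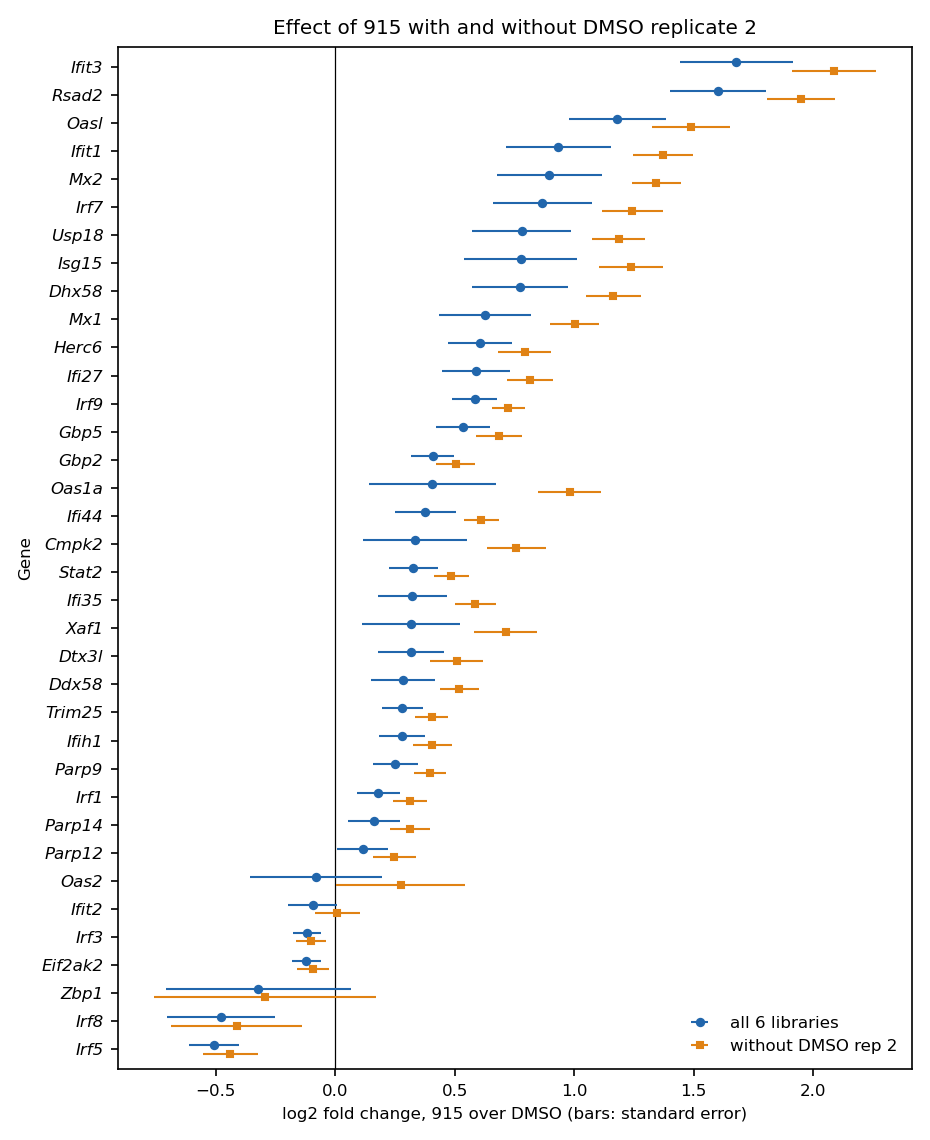
Log2 fold change of 915 over DMSO with its standard error for the 36 tested genes, from all 6 libraries (circles) and without DMSO replicate 2 (squares). The squares lie to the right of the circles for most genes, with medians of 0.60 and 0.33, and Irf5 lies below 0 in both.

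Without DMSO library 2, 29 of the 36 genes were called higher and 1 lower, or 80.6% and 2.78%. The background in that fit was 24.2% of all genes called higher and 24.5% lower, and the medians were 0.60 for the interferon-stimulated genes and -0.01 for all genes. The calls gained were those of Ddx58, Irf1, Dtx3l, Parp12, Parp14, Oas1a, Cmpk2, Xaf1 and Ifi35. With library 2 of both groups left out, an alternative chosen after the data had been seen, 29 were again called higher and 1 lower, with a median of 0.64, against backgrounds of 25.1% and 25.0%.

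The size of the excess in DMSO library 2 varied between genes together with the shortfall in 915 library 2. Oas1a, Isg15, Mx2, Ifit1, Cmpk2 and Usp18 were among those with a large excess, whereas Irf3, Zbp1 and Eif2ak2 had next to none. Across the 36 genes, Pearson's r between the excess in DMSO library 2 and the shortfall in 915 library 2 was 0.708, and across all genes tested it was 0.206. Genes are not independent replicates and each of these points shares the same 6 libraries, so the correlation is a description. In depth, 915 library 2 was the shallowest of the 6, with 30639244 reads, and DMSO library 2, with 38707933, lay between the other DMSO libraries; the part of depth in the pattern was not tested.

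**Figure D4:**
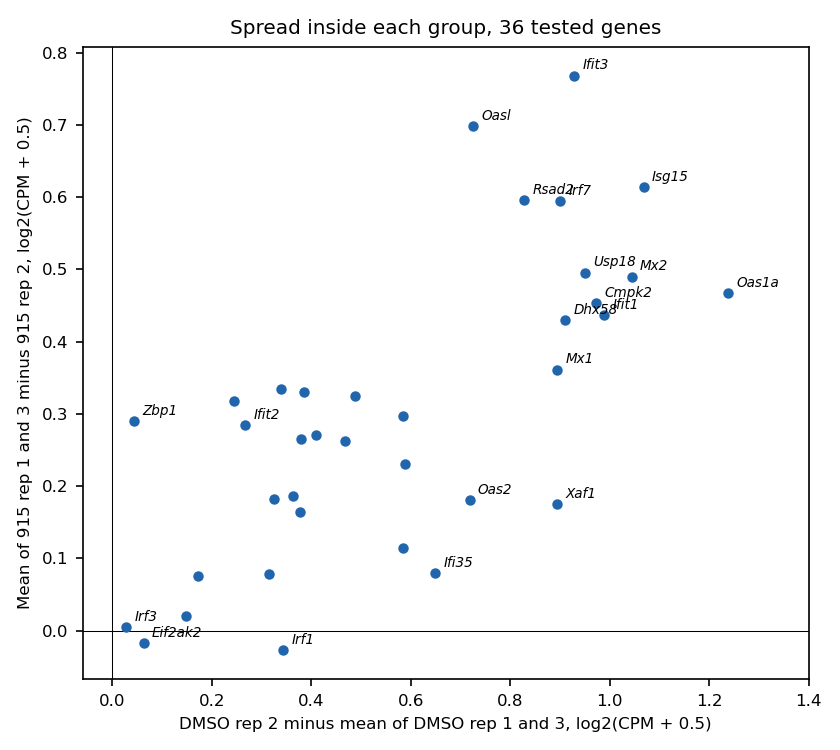
For each of the 36 tested genes (points), the excess of DMSO replicate 2 over the mean of DMSO replicates 1 and 3 (horizontal) and the shortfall of 915 replicate 2 under the mean of 915 replicates 1 and 3 (vertical), both in log2(CPM + 0.5). Most genes lie to the upper right of the origin, with medians of 0.54 and 0.29 and Pearson's r of 0.708.

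The labelled cell type was checked against marker genes. The 10 cardiomyocyte markers summed to 20207 to 21395 CPM with DMSO and 27773 to 28164 CPM with 915, with 9 higher and 1, Myl7, lower. Fibroblast markers summed to 21050 to 21920 CPM with DMSO and 11113 to 11766 CPM with 915. Of the 9 tested, 6 were lower, 2 (Dcn and Pdgfra) were higher and Postn was not called. The collagen genes Col1a1, at 12335, 11731 and 11897 CPM with DMSO and 6435, 5971 and 6461 CPM with 915, and Col3a1, at 7244, 7027 and 6932 CPM with DMSO and 2847, 2726 and 2904 CPM with 915, made up most of that sum. Endothelial markers summed to 72.1 to 74.9 CPM with DMSO and 57.0 to 57.4 CPM with 915, with 5 of 9 tested lower and 1 higher. So the cultures also held RNA typical of fibroblasts and, at low levels, of macrophages and endothelium. T and NK cell markers summed to under 1 CPM in each library, with Cd3e at 0 in all 6, and so did those of B cells and plasmacytoid dendritic cells, with Siglech at 0 in all 6. DMSO library 2 had the highest macrophage and leukocyte sum of the DMSO libraries, at 307 CPM against 274 and 282. Likewise 915 library 2 had the lowest of its group, at 141 CPM against 158 and 170. The cardiomyocyte sum had the same ranks, at 21395 CPM in DMSO library 2 against 20207 and 20915. In 915 library 2 it was 27773 CPM against 28056 and 28164. The fibroblast and endothelial sums did not have both ranks. The part of any cell type in the spread of the interferon-stimulated genes was not tested. Between the groups, 8 of the 14 tested macrophage and leukocyte markers were called lower with 915, 0 higher and 6 not called. Beside all these marker counts, 24.3% of all genes tested were called higher and 25.5% lower.

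Few reads came from the interferon genes themselves. Of 11 ligand genes listed, 7 had a row and 0 passed the filter for a test. Ifnb1, the gene of interferon beta, had 0, 2 and 0 reads with DMSO and 2, 6 and 2 with 915. The alpha genes Ifna4 and Ifna5 had 0 reads in all DMSO libraries, and with 915 they had 2, 4 and 0 and 0, 2 and 0 reads. Ifne had 7, 0 and 1 reads with DMSO and 5, 0 and 0 with 915, and Ifnk had 2, 0 and 0 and then 1, 0 and 2. Ifng and Ifnl3 had 0 reads in each library, which allows a level of up to 0.0698 to 0.0917 CPM by counting error alone (3 reads). At these counts no ligand was tested for a difference. In CPM every 915 library of Ifnb1 lay above every DMSO library. The nearest pair, DMSO library 2 and 915 library 3, had 2 reads each, so no difference is read from this.

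Of 14 tested genes for receptors, kinases and feedback, 6 rose and 2 fell, against 24.3% and 25.5% of all genes tested. Socs3, which inhibits the receptor kinases, was at 14.3, 13.6 and 14.1 CPM with DMSO and 20.7, 22.0 and 22.9 CPM with 915, without overlap and with no excess in DMSO library 2. It had a log2 fold change of 0.69 ± 0.0756 (SE; adjusted p = 3.56e-06, edgeR). Ptpn2, a phosphatase that switches the pathway off, was at 22.5, 20.5 and 21.7 CPM with DMSO and 28.6, 28.6 and 28.9 CPM with 915, with a log2 fold change of 0.46 ± 0.0653 (SE; adjusted p = 4.26e-05, edgeR). Il10rb, a chain shared by the receptors of interferon lambda and interleukin-10, was at 30.9, 30.8 and 30.6 CPM with DMSO and 41.4, 37.2 and 40.8 CPM with 915, with a log2 fold change of 0.42 ± 0.0627 (SE; adjusted p = 7.05e-05, edgeR). In none of these 3 did DMSO library 2 exceed a 915 library. Without it their log2 fold changes were 0.68 (edgeR adjusted p = 4.42e-06) for Socs3, 0.43 (edgeR adjusted p = 1.02e-04) for Ptpn2 and 0.43 (edgeR adjusted p = 7.12e-05) for Il10rb.

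Among 17 tested genes of the pathways that induce interferon, 3 rose and 3 fell, with the same background of 24.3% and 25.5% over all genes. Mavs, the mitochondrial adaptor that carries the signal of RIG-I and MDA5, was at 49.9, 44.6 and 45.9 CPM with DMSO and 73.3, 65.5 and 70.3 CPM with 915, with a log2 fold change of 0.63 ± 0.0612 (SE; adjusted p = 1.18e-06, edgeR). Tlr3, the endosomal receptor for double-stranded RNA, was at 12.8, 11.7 and 13.7 CPM with DMSO and 9.31, 8.01 and 6.79 CPM with 915, and fell with a log2 fold change of -0.61 ± 0.118 (SE; adjusted p = 5.94e-04, edgeR). Traf3, an adaptor downstream of both, was at 52.6, 49.5 and 51.2 CPM with DMSO and 41.2, 39.7 and 42.2 CPM with 915, and fell with a log2 fold change of -0.27 ± 0.0565 (SE; adjusted p = 0.00126, edgeR). The groups did not overlap for any of these 3, which were picked by their small p. Of the 17, 2 did not overlap with 915 higher, against 23.9% of all genes. With 915 lower, 5 did not overlap, but the share of all genes is not given here, so nothing is read from that count. Without DMSO library 2 the log2 fold changes were 0.60 (edgeR adjusted p = 6.83e-07) for Mavs, -0.67 (edgeR adjusted p = 2.66e-04) for Tlr3 and -0.28 (edgeR adjusted p = 0.00121) for Traf3.

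A further 28 interferon effectors that are outside the list of 41 were tested, and 14 rose and 1 fell, beside 24.3% and 25.5% of all genes. Slfn2, a regulator of immune cell quiescence, was at 26.3, 29.7 and 25.7 CPM with DMSO and 55.6, 48.8 and 58.7 CPM with 915, with a log2 fold change of 1.05 ± 0.0801 (SE; adjusted p = 9.90e-08, edgeR). Ifi27l2b, related to Ifi27, was at 74.2, 121 and 94.2 CPM with DMSO and 209.7, 152 and 213 CPM with 915, with a log2 fold change of 1.04 ± 0.148 (SE; adjusted p = 4.78e-05, edgeR). Ifitm3, which blocks viral entry at membranes, was at 218, 249 and 196 CPM with DMSO and 317, 285 and 339 CPM with 915, with a log2 fold change of 0.55 ± 0.0803 (SE; adjusted p = 5.42e-05, edgeR). In all 3 the groups did not overlap, and in all 3 DMSO library 2 was the highest of the DMSO libraries, as it was for 22 of the 28. These 3 were picked by their small p. Of the 28, 10 did not overlap with 915 higher, against 23.9% of all genes. With 915 lower, 2 did not overlap, and the share of all genes is likewise not given here. Leaving that library out gave 1.12 (edgeR adjusted p = 1.96e-09) for Slfn2, 1.24 (edgeR adjusted p = 6.75e-08) for Ifi27l2b and 0.65 (edgeR adjusted p = 1.96e-07) for Ifitm3, as log2 fold changes. Over all 59 tested genes outside the list, 23 rose and 6 fell, the median difference being 0.17 in log2, against 24.3% and 25.5% of all genes. Without DMSO library 2 the counts were 31 and 7, against 24.2% and 24.5%.

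**Figure D5:**
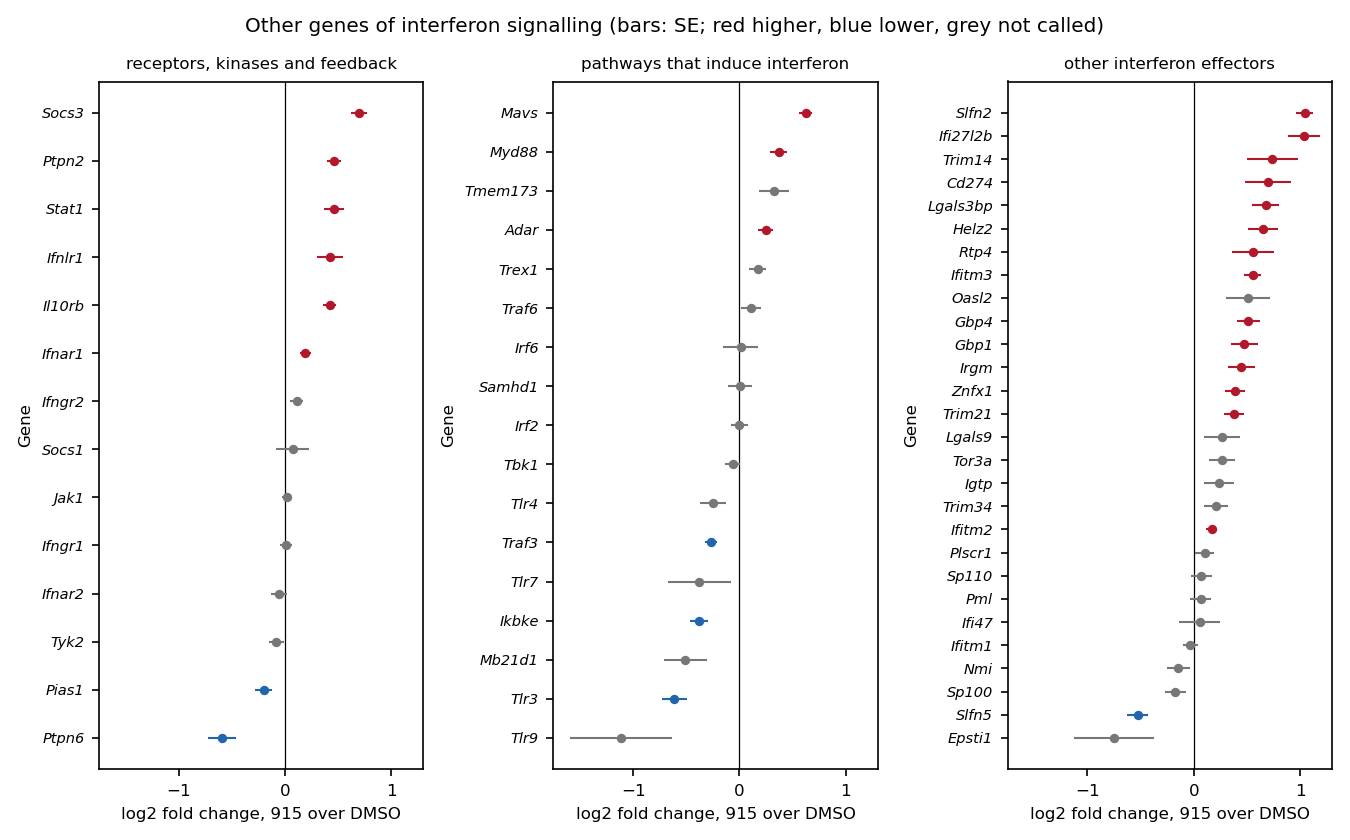
Log2 fold change of 915 over DMSO with its standard error for the 59 tested genes of interferon signalling outside the list of 41, in 3 panels by role (red called higher, blue lower, grey not called). The effectors (right) hold 14 of the 23 genes called higher, and the genes that induce interferon (middle) are evenly split at 3 and 3.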

How the data were processed

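RNA-seq of 6 libraries was used, 3 per group; compound 332 was not analysed here. The authors deposited read counts per gene, made with STAR 2.5.1a and featureCounts 1.4.6-p5 of Subread on Rnor_6.0, per the submitters' processing notes. They also deposited the CPM values printed here as levels, scaled to totals of which the table holds 93.1% to 93.7%. The sources used here give neither the strand setting nor how multimapping reads were treated. Repeated rows (993 of 22641) were dropped, leaving 21648 genes. Counts were tested with edgeR 4.0.16 (R 4.3.3): filterByExpr, TMM scaling, the quasi-likelihood test, 2-sided, and Benjamini-Hochberg adjustment over 14253 genes, with a threshold of 0.05. The standard error is the log2 fold change divided by the square root of F. DESeq2 1.42.0 was an alternative, and 12 alternatives were run in all. Depth was 30639244 to 40010826 counts per library, and intervals from counts cover counting error only. The fit was tested on simulated counts with the same dispersion for every gene and no excess in any library. Those counts lack the excess seen in DMSO library 2, so that test does not bear on the calls of these genes. Promoters are those of RefSeq, GRCr8, matched by symbol; coordinates are in that build and not in that of the counts.

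The genes and lists were chosen with earlier results of these data known. Values per library are given for up to 3 tested genes with the smallest p in each role. They are also given for genes called lower and for those whose call changes without DMSO library 2. Isg15, Eif2ak2, Irf8, Stat2, Mx1 and the markers Csf1r, Lyz2, Cd68, Cd14 and Cd163 were added after their values were seen. Of each pathway list, up to 3 called genes with the smallest p are named, and ligands with any count; 1 gene of these lists is not reported here. Promoters are those of the up to 6 genes with the highest log2 fold change among those called higher.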

Additional observations from a re-analysis of the deposited data

How the results depend on the processing

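Under DESeq2 13 interferon-stimulated genes were called higher, against 20 in edgeR. Without TMM scaling 3 were called lower, against 1, since Eif2ak2 and Irf3 joined Irf5. The cause was not tested in either case. All genes called, higher or lower, numbered 6861 under DESeq2, 7093 without TMM scaling and 7096 in the main fit. Leaving out 1 library at a time gave 13 to 29 called higher, 1 to 3 called lower and a median log2 fold change of 0.22 to 0.60, and with library 2 of both groups left out, added after the data were seen, the median was 0.64. Ifit2 and Oas2, neither called, changed sign when a library was left out: Ifit2 ranged from -0.20 to 0.0088 and was above 0 only without DMSO library 2, and Oas2 ranged from -0.32 to 0.27 and was above 0 without DMSO library 2 or 915 library 1 (0.05). With library 2 of both groups left out they were at 0.10 and 0.36. The deviations of same-numbered libraries from their group means had Pearson's r of -0.06, -0.21 and -0.12 across genes, no library correlated best with its own number, and the pairing was not used; with the replicate block 18 were called higher and 1 lower, with a median of 0.39, the calls of Ifih1 and Parp9 dropping out. With no filter on low counts 23 were called higher, Ddx58, Dtx3l and Ifi35 among them. That fit called 7174 of all genes higher or lower. The share of all genes called is not given here for the replicate block. It is also not given for fits leaving out 1 library other than DMSO library 2. Scaling by DESeq2's size factors changed no call among the 36 genes. Low counts limit what can be said of the ligands, Zbp1, Oas1b and Oas2.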
